A study of Homo sapiens with 12 samples.

Results

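The genes described here make fatty acids from citrate and acetate or prepare them for use. They are SREBF1, ACLY, ACSS2, ACACA, FASN, SCD, FADS1, FADS2, ELOVL6 and ACSL3, taken by gene symbol from the deposited count files, and make up 10 of the 23710 genes listed there. All 10 passed the filter on low counts in both experiments. RCC4 is an established line of human clear cell renal carcinoma. MESH1, listed under its gene symbol HDDC3, is a phosphatase of cytosolic NADPH, the reductant that fatty acid synthesis consumes. Experiment 1 compared siMESH1#1 (siMESH1-CDS, directed at the coding sequence) with its own non-targeting control siNT, and experiment 2 compared siMESH1#2 (siMESH1-7002, directed at the 3'UTR) with a separate siNT. Each group had 3 libraries, labelled as biological replicates, from cells collected 72 h after transfection with 40 pmol of siRNA and Lipofectamine RNAiMAX in DMEM with 10% serum. A single cell line was used, each siRNA was tested in 1 experiment only, and there was no untransfected group. The siRNA and the experiment can therefore not be told apart when both are compared.

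As background, ACLY cleaves cytosolic citrate to acetyl-CoA, and ACSS2 makes the same product from acetate. ACACA carboxylates acetyl-CoA to malonyl-CoA, and FASN condenses these units to palmitate with electrons from NADPH. ELOVL6 extends the chain, SCD, FADS1 and FADS2 introduce double bonds, and ACSL3 activates fatty acids to acyl-CoA for lipid assembly. SREBF1 encodes SREBP1, a membrane-bound transcription factor that is released by proteolysis and activates most of these genes. Clear cell renal carcinoma is known for its stored lipid.

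The siRNA sequences are shown first because a short match to positions 2 to 8 of the guide strand, the seed, can occur in other transcripts. The capitals mark the bases that pair with the seed.
siMESH1#1: gggaaucacugACAUUGUg
siMESH1#2: ctgaaggtctcctGCTAACTa
Among the 10 genes, ACLY held 1 match to the seed of siMESH1#1 (ACATTGT) at base 480 of its 902-base 3'UTR, and ACACA held 1 match to that of siMESH1#2 (GCTAACT) at base 1412 of 2328. The sites are given with the bases around them, from GENCODE 29 transcripts.
ACLY site: taacatgaagaACATTGTattaatctgat
ACACA site: cctttagtgcaGCTAACTgcatttgtcac
Aligned without gaps, the ACLY site equalled the siMESH1#1 target at 10 of 19 bases and the ACACA site equalled that of siMESH1#2 at 10 of 21. Such seed matches were found in 14.3% of 18495 genes with a 3'UTR for siMESH1#1 and in 5.52% for siMESH1#2. A match is a description of the sequence, and its part in the changes of ACLY and ACACA was not tested.

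Reads in genes ranged from 34063155 to 49134129 per library in experiment 1 and from 24787804 to 31651125 in experiment 2. HDDC3 fell with both siRNAs, from 7.48 ± 0.913 to 0.158 ± 0.158 CPM (reads of a gene scaled to a common library total, SD, n = 3) with siMESH1#1 and from 13.2 ± 0.630 to 1.38 ± 0.291 CPM with siMESH1#2. Marker levels are CPM over all reads in genes, without the TMM factors used for HDDC3. Of 7 renal carcinoma markers, PAX8 and VIM were at 26.5 CPM or more in every library. In experiment 1 KRT18, CA9, PAX2 and KRT8 were as low as 0.242, 1.3, 2.47 and 6.86 CPM. In experiment 2 they were at 64.5 CPM or more. PAX8 ran from 26.5 to 198 CPM in experiment 1 and from 402 to 480 CPM in experiment 2, and NDUFA4L2 from 0.0661 to 34.6 and from 954 to 1150 CPM. Of the 7 markers of blood, endothelial, fibroblast and liver cells, PTPRC, CD3E, PECAM1 and CDH5 were at most 0.0492 CPM in every library and ALB at most 0.305 CPM. CD68 and COL1A1 were present, at up to 145 and 29.6 CPM. The siMESH1#1 libraries stood apart in a further respect. Genes were divided into 10 classes of equal size by transcript GC content. Their median log2 change with siMESH1#1 was 1.11 in the class of lowest GC content and -3.68 in that of highest, where siMESH1#2 gave 0.14 and -0.09. The changes of the 10 genes are therefore given a second time after GC content was corrected for in every library, and those of the other pathway genes named where the correction ended the call, turned the direction or moved the value by more than 1.5 times.

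With siMESH1#1, 6 of the 10 genes were called lower (adjusted p under 0.05 in edgeR's quasi-likelihood test), namely SREBF1, ACLY, ACSS2, FASN, FADS1 and FADS2, and 1, SCD, was called higher. Over all 13395 genes tested, 37.2% were called lower and 36.9% higher. With siMESH1#2, 8 of 10 were called lower and 0 higher, where 26.7% of 13568 genes were called lower and 26.6% higher. The 2 genes not called with siMESH1#2 were ACSS2 and ELOVL6. The median log2 change of the 10 genes was -1.47 with siMESH1#1 and -0.34 with siMESH1#2, beside -0.05 and 0.005 over all genes tested. Scaled to ACTB counts, the medians were -0.13 and 0.11, since ACTB itself fell with both siRNAs, with log2 changes of -1.38 and -0.45. The GC correction turned the ACTB change with siMESH1#1 to 0.54 ± 0.211, which was not called (edgeR adjusted p = 0.0603), and left -0.32, called, with siMESH1#2. SREBF1, ACLY, FASN, FADS1 and FADS2 were called lower with both siRNAs, so 5 of 10, where 15.1% of the 12824 genes tested with both were. SCD was the 1 gene called in opposite directions.

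**Figure D1:**
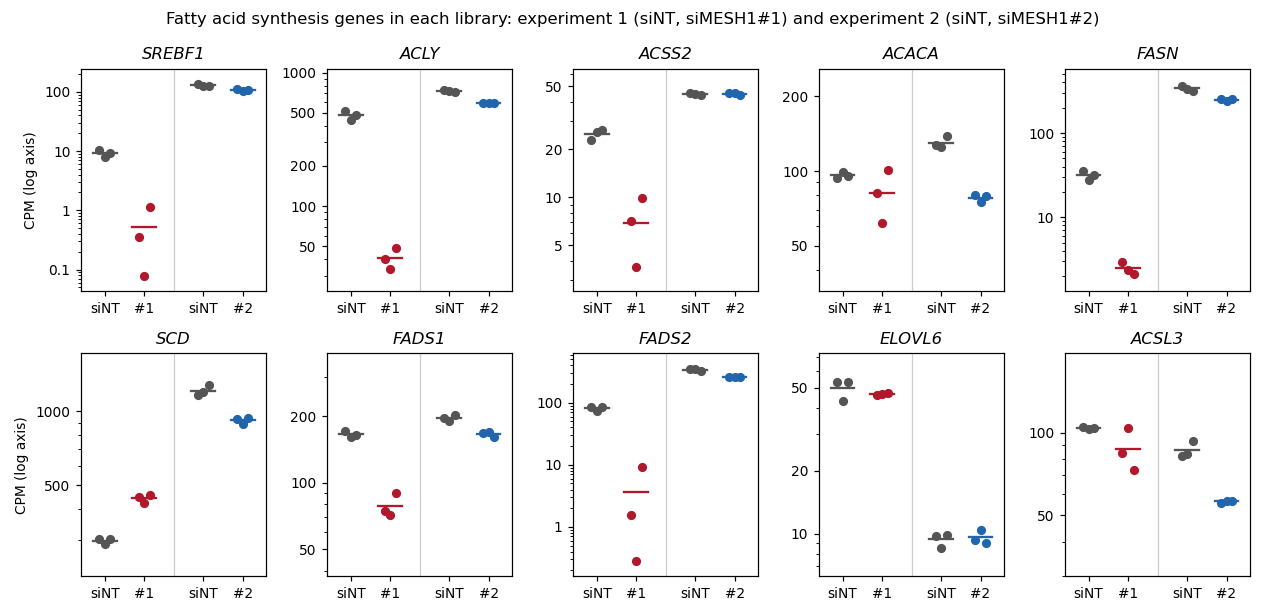
CPM of each gene in each library on log axes, with siNT in grey, siMESH1#1 in red and siMESH1#2 in blue, and a line at each group mean of 3 libraries. With siMESH1#1 ACLY and FASN sit at 8.45% and 7.86% of their controls and SCD above them, while with siMESH1#2 the groups of 8 genes separate by smaller steps and ACSS2 and ELOVL6 overlap.

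The groups of 3 libraries did not overlap for 7 of the 10 genes with siMESH1#1, and for 8 of 10 with siMESH1#2. Over all genes tested the groups did not overlap for 82.7% and 59.5%. The reads of the 10 genes together made up 0.142% to 0.151% of reads in genes in siNT and 0.0632% to 0.0807% in siMESH1#1. In experiment 2 they made up 0.320% to 0.326% in siNT and 0.243% to 0.251% in siMESH1#2. These shares, which carry no scaling beyond the library total, did not overlap between groups in either experiment.

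SREBF1 (chromosome 17, 17810399 to 17837002, minus strand, GRCh38, as for all positions here) was the least abundant of these genes per kilobase in experiment 1. It stood at 10.3, 8.06 and 9.26 CPM in the siNT libraries and at 0.348, 0.078 and 1.15 CPM in the siMESH1#1 libraries, which held 11, 3 and 40 reads. The knockdown libraries were all below the controls but differed widely among themselves. The log2 change was -4.13 ± 0.823 (SE, edgeR adjusted p = 0.00519). Corrected for GC content it was -0.60 ± 0.277 (edgeR adjusted p = 0.0982) and no longer called. The SREBF1 transcript, at 64.73% GC, belongs to the highest GC class, whose median is given above. In experiment 2 SREBF1 was far more abundant, at 136, 127 and 125 CPM in siNT and at 112, 103 and 109 CPM in siMESH1#2. The 2 groups lay close to each other without overlapping. SREBF1 changed by -0.26 ± 0.0515 on the log2 scale (edgeR adjusted p = 0.000446), or 83.5% of siNT. It was -0.12 ± 0.0388 after the GC correction (edgeR adjusted p = 0.0115) and turned to 0.19 when scaled to ACTB.

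ACLY (chromosome 17, 41866908 to 41930542, minus strand), the source of cytosolic acetyl-CoA from citrate, was the most abundant gene of the set per kilobase in the controls of experiment 1. It had 517, 443 and 484 CPM in siNT and 40.3, 33.5 and 48.1 CPM in siMESH1#1. The siMESH1#1 libraries were close to each other and well below every control. The log2 change was -3.57 ± 0.165 (edgeR adjusted p = 0.000178), which is 8.45% of siNT or 11.8-fold lower. ACLY has a GC content of 52.15%, and genes of its GC class had a median change of -0.76 with siMESH1#1. Once corrected for GC content, the ACLY change was -2.74 ± 0.10 (edgeR adjusted p = 1.56e-05), or 15% of siNT. ACLY was thus called lower with siMESH1#1 both with and without that correction. In experiment 2 it had 737, 729 and 714 CPM in siNT and 595, 593 and 594 CPM in siMESH1#2. These groups did not overlap either, but the step was small. ACLY stood at 81.7% of siNT, a log2 change of -0.29 ± 0.0383 (edgeR adjusted p = 7.38e-06). It was -0.19 after the GC correction and 0.16 scaled to ACTB.

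Since ACLY holds the seed match to siMESH1#1, the genes with such a match were described beside it. With siMESH1#1, the 2062 tested genes with a match had a median log2 change of 0.34 and the 10118 without one of -0.20. These medians became -0.01 and 0.22 with the correction. The corrected change of ACLY was below that of all but 2.09% of the genes with a match, and below that of all but 2.72% of those without. ACTB also held 1 such match.

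ACSS2 (chromosome 20, 34872146 to 34927962, plus strand), which activates acetate, had 22.8, 25.9 and 26.6 CPM in the siNT libraries of experiment 1. In siMESH1#1 it had 7.12, 3.64 and 9.92 CPM, all below the controls. The log2 change was -1.86 ± 0.371 (edgeR adjusted p = 0.00520), close to the median of -1.65 of its GC class, and -0.50 ± 0.126 after the GC correction (edgeR adjusted p = 0.0134). ACSS2 did not differ detectably with siMESH1#2, with 45.5, 44.5 and 43.7 CPM in siNT and 45.1, 45.1 and 44.1 CPM in siMESH1#2, overlapping groups and a log2 change of 0.01 ± 0.0537 (edgeR adjusted p = 0.922). With GC content corrected, that change was 0.13 ± 0.0402 and was called higher (edgeR adjusted p = 0.00803). The median of all genes tested was then 0.075. The reads of ACLY per read of ACSS2 numbered 17.1 to 22.7 in siNT and 4.85 to 9.21 in siMESH1#1. In experiment 2 this ratio was 16.2 to 16.4 in siNT and 13.1 to 13.5 in siMESH1#2. It was lower in every knockdown library than in every control of the same experiment.

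ACACA (chromosome 17, 37084988 to 37406818, minus strand), the acetyl-CoA carboxylase that commits acetyl-CoA to fatty acid synthesis, had 93.9, 99.4 and 95.1 CPM in siNT and 81.7, 61.5 and 101 CPM in siMESH1#1. The highest siMESH1#1 library exceeded all controls, so the groups overlapped. The log2 change of -0.24 ± 0.184 was not called (edgeR adjusted p = 0.270), nor was that after the GC correction, -0.09 ± 0.104 (edgeR adjusted p = 0.468). Without the third siMESH1#1 library it was -0.44 and called (edgeR adjusted p = 0.0272). With siMESH1#2, ACACA showed the largest change of the 10 genes on the TMM scale, and after the GC correction it came next to ACSL3, at -0.65 against -0.66. It had 127, 125 and 138 CPM in siNT and 80.4, 75.2 and 79.0 CPM in siMESH1#2, and every knockdown library was well below every control. ACACA fell to 60.2% of siNT, a log2 change of -0.73 ± 0.0523 (edgeR adjusted p = 4.57e-09). It stayed below 0 after the GC correction, at -0.65, and scaled to ACTB, at -0.28.

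ACACA holds the seed match to siMESH1#2. The 780 tested genes with a match to that seed had a median log2 change of -0.20 with siMESH1#2, and the 11659 without one had 0.01. Of the genes with a match, 19.1% had a lower change than ACACA, against 5.79% of those without. Both medians and ACACA kept their order after the GC correction, at -0.16, 0.08 and -0.65.

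FASN (chromosome 17, 82078333 to 82098332, minus strand), the multidomain fatty acid synthase, had 35.1, 28.0 and 32.0 CPM in siNT and 2.97, 2.37 and 2.13 CPM in siMESH1#1. The groups were far apart and the knockdown libraries close together. FASN changed by -3.67 ± 0.208 on the log2 scale (edgeR adjusted p = 0.000214), beside a median of -3.68 in its GC class. It had the highest GC content of the 10 genes, 65.34%. The corrected change was 0.63 ± 0.560 (edgeR adjusted p = 0.349), so neither the direction nor the call was kept. The change of FASN and the GC trend of the siMESH1#1 libraries cannot be told apart. In experiment 2 FASN had 361, 336 and 319 CPM in siNT and 252, 239 and 257 CPM in siMESH1#2. The groups did not overlap, and the log2 change of -0.44 ± 0.0498 (edgeR adjusted p = 1.35e-06) became -0.30 ± 0.0323 after the GC correction (edgeR adjusted p = 7.32e-08). Scaled to ACTB it was 0.01.

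**Figure D2:**
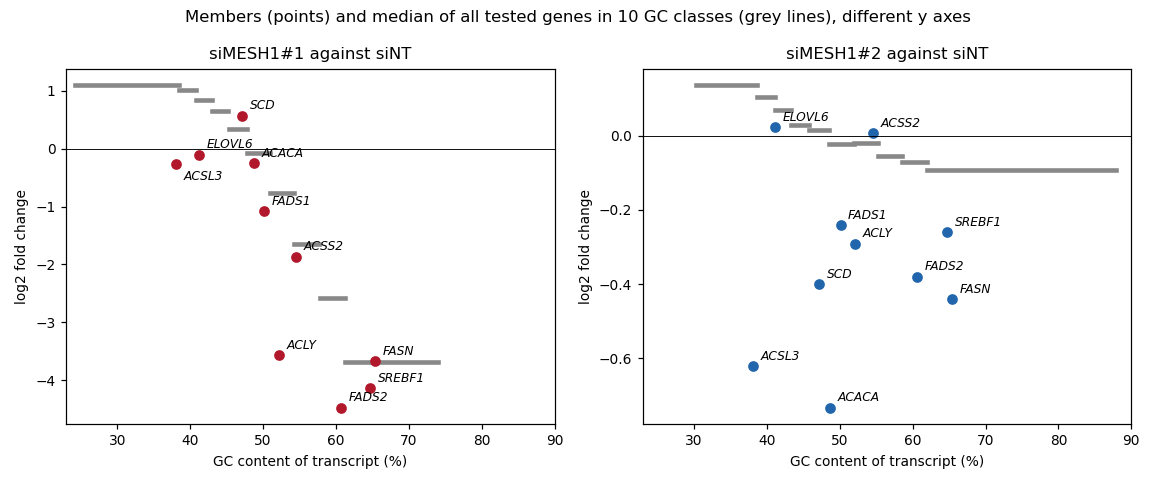
Log2 fold change of each gene against the GC content of its transcript, with the median of all tested genes in 10 GC classes as grey lines whose width is the range of the class, and different y axes for each siRNA. With siMESH1#1 FASN lies on the grey lines and ACLY far below those of its GC content, at -3.57 against -0.76. With siMESH1#2 the grey lines stay between 0.14 and -0.09, and 8 genes lie below all of them.

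SCD (chromosome 10, 100347124 to 100364834, plus strand), the stearoyl-CoA desaturase that makes oleate and palmitoleate, moved in opposite directions. It had 302, 287 and 302 CPM in siNT and 447, 422 and 457 CPM in siMESH1#1, so each knockdown library was above each control. SCD rose 1.49-fold, from a mean of 297 to 442 CPM, a log2 change of 0.57 ± 0.0779 (edgeR adjusted p = 0.00132). The corrected change was 0.52 ± 0.0456 (edgeR adjusted p = 0.000194). The median of its GC class was 0.34. In experiment 2 the order was the other way round. SCD had 1170, 1200 and 1280 CPM in siNT and 929, 888 and 944 CPM in siMESH1#2. The change on the log2 scale was -0.40 ± 0.0436 (edgeR adjusted p = 8.86e-07) and -0.33 after the GC correction, but 0.05 when scaled to ACTB. The reads of SCD per read of FASN rose from 8.61 to 10.2 in siNT to 151 to 215 in siMESH1#1. They were 3.23 to 4.00 in siNT and 3.67 to 3.71 in siMESH1#2, where the groups overlapped. These ratios are not corrected for GC content, which is 47.13% for SCD and 65.34% for FASN. The corrected changes with siMESH1#1 were 0.52 for SCD and 0.63 ± 0.560 for FASN. The rise in the ratio was not kept there.

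FADS1 (chromosome 11, 61799625 to 61829318, minus strand) and FADS2 (chromosome 11, 61792980 to 61867354, plus strand) encode the delta-5 and delta-6 desaturases of polyunsaturated fatty acids. Their annotated spans overlap on opposite strands. The library kit keeps the strand, but the strand setting of the counting is not given in the sources used here, so their reads may not be fully separated. FADS1 had 172, 162 and 165 CPM in siNT and 74.5, 71.7 and 89.7 CPM in siMESH1#1. All 3 knockdown libraries were well below the controls, at 47.3% of siNT in the fit. The log2 change of -1.08 ± 0.111 (edgeR adjusted p = 0.000578) was larger in size than the median of -0.08 of its GC class. It was -0.68 ± 0.0751 after the GC correction (edgeR adjusted p = 0.000475) and 0.32 scaled to ACTB. With siMESH1#2, FADS1 went from 197, 191 and 203 CPM to 168, 169 and 162 CPM. The groups did not overlap, the log2 change was -0.24 ± 0.0445 (edgeR adjusted p = 0.000230), and it was -0.15 after the GC correction and 0.21 scaled to ACTB.

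FADS2 varied most between the siMESH1#1 libraries. It had 84.2, 75.0 and 84.2 CPM in siNT and 1.55, 0.286 and 9.12 CPM in siMESH1#1, and the highest knockdown library was still below every control. The log2 change was -4.47 ± 1.15 (edgeR adjusted p = 0.0134). Without the first siMESH1#1 library it was -4.11 (edgeR adjusted p = 0.0506), and without the third it was -6.53 (edgeR adjusted p = 0.000236). The corrected change was -1.93 ± 0.524 (edgeR adjusted p = 0.0172), and its GC class had a median of -2.57 without the correction. In experiment 2 FADS2 went from 350, 345 and 328 CPM to 265, 263 and 257 CPM, with little spread in either group. FADS2 stood at 76.9% of siNT, a log2 change of -0.38 ± 0.0423 (edgeR adjusted p = 1.14e-06), which was -0.25 after the GC correction and 0.07 relative to ACTB. The reads of FADS1 per read of FADS2 were 1.95 to 2.16 in siNT and 9.84, 48.1 and 251 in siMESH1#1, against 0.553 to 0.618 in siNT and 0.630 to 0.641 in siMESH1#2. The ratio was higher in every knockdown library than in the controls of the same experiment. It is not corrected for GC content, which is 50.1% for FADS1 and 60.66% for FADS2. The corrected changes with siMESH1#1, -0.68 and -1.93, lay closer together than the uncorrected -1.08 and -4.47.

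ELOVL6 (chromosome 4, 110045846 to 110199199, minus strand), the elongase that takes palmitate to stearate, was not called with either siRNA. It had 53.2, 43.4 and 53.3 CPM in siNT and 46.0, 46.9 and 47.1 CPM in siMESH1#1, and 9.77, 8.56 and 9.86 CPM in siNT and 9.29, 10.4 and 9.04 CPM in siMESH1#2. The groups overlapped in both experiments. The log2 changes were -0.10 ± 0.119 (edgeR adjusted p = 0.467) and 0.02 ± 0.0927 (edgeR adjusted p = 0.861). Genes of its GC class, the third lowest, rose with siMESH1#1 by a median of 0.84. With GC content corrected, ELOVL6 was called lower with siMESH1#1, at -0.79 ± 0.142 (edgeR adjusted p = 0.00348), and with siMESH1#2 its change was 0.01 and not called.

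ACSL3 (chromosome 2, 222860934 to 222944639, plus strand), an acyl-CoA synthetase of the endoplasmic reticulum and of lipid droplets, had 105, 103 and 104 CPM in siNT and 84.2, 104 and 73.1 CPM in siMESH1#1. One knockdown library lay among the controls. The log2 change of -0.25 ± 0.143 was not called (edgeR adjusted p = 0.149), but without the second siMESH1#1 library it was -0.39 (edgeR adjusted p = 0.00687). ACSL3 had the lowest GC content of the 10 genes, 38.07%, in a class with a median change of 1.11. Corrected for GC content, it was called lower, at -1.08 ± 0.0498 (edgeR adjusted p = 2.29e-05). With siMESH1#2 it went from 82.1, 83.6 and 93.5 CPM to 55.6, 56.3 and 56.5 CPM. Every knockdown library was below every control, and the log2 change was -0.62 ± 0.0569 (edgeR adjusted p = 1.07e-07), or 65.0% of siNT. It was -0.66 after the GC correction and -0.17 scaled to ACTB.

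**Figure D3:**
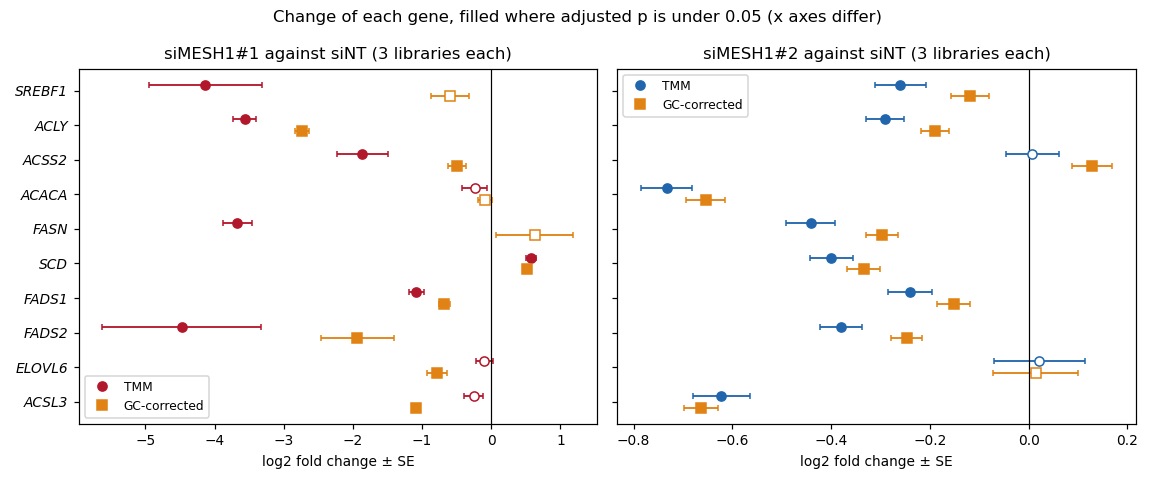
Log2 fold change with SE for each gene, as circles with TMM scaling and as orange squares after the GC correction, filled where the edgeR adjusted p is under 0.05, with different x axes for each siRNA. With siMESH1#1 the correction moves FASN from -3.67 to 0.63 and leaves ACLY at -2.74, and with siMESH1#2 the same 8 genes lie below 0 in both.

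After the GC correction, siMESH1#1 gave 6 genes called lower and 1 called higher, as before it, but ELOVL6 and ACSL3 had taken the place of SREBF1 and FASN. The background was then 27.0% lower and 41.0% higher of 12921 genes, and the median of the 10 genes was -0.64 beside 0.17 over all genes tested. With siMESH1#2 the correction left the 8 genes called lower and added ACSS2 as called higher, with 24.1% and 39.8% of 13100 genes called in each direction and medians of -0.22 and 0.08. ACLY, ACSS2, FADS1 and FADS2 were thus called lower with siMESH1#1 in both versions, and of these ACLY, FADS1 and FADS2 with siMESH1#2 as well. On the ACTB scale FADS1 with siMESH1#1 and all 3 with siMESH1#2 were above 0. Within the sequencing lanes that held 1 library of each group, ACLY differed by -3.43 in lane 4 and by -3.58 in lane 6 on the log2 scale, FADS1 by -0.94 and -1.14, and SCD by 0.60 and 0.57. FADS2 differed by -3.21 and -5.76. The direction of all 7 genes called with siMESH1#1 was the same in both lanes, while ACACA was 0.10 in lane 4 and -0.22 in lane 6.

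The difference between both changes was tested in a fit of all 12 libraries, which takes 1 spread per gene from both experiments. The change with siMESH1#1 was lower than that with siMESH1#2 for 6 genes and higher for 1, where 39.7% and 30.0% of 14154 genes were called in each direction, or 69.7% in either. ACLY differed by -3.42 ± 0.169 on the log2 scale (edgeR adjusted p = 3.81e-07) and SCD by 0.82 ± 0.0964 (edgeR adjusted p = 4.69e-05). The others were SREBF1, ACSS2, FASN, FADS1 and FADS2. ACACA, ELOVL6 and ACSL3 did not differ past the threshold, with differences of 0.34 ± 0.206 (edgeR adjusted p = 0.159), -0.28 ± 0.15 (edgeR adjusted p = 0.123) and 0.22 ± 0.16 (edgeR adjusted p = 0.249). After the GC correction the ACLY difference was -2.53 and that of SCD 0.81, both called. The FASN difference was then 0.50 (edgeR adjusted p = 0.373) and that of SREBF1 -0.54 (edgeR adjusted p = 0.0710), and neither was called. The 3 genes not called before it were called with it, ACACA at 0.54 ± 0.123 (edgeR adjusted p = 0.00291), ELOVL6 at -0.86 ± 0.180 (edgeR adjusted p = 0.00179) and ACSL3, whose sign turned, at -0.49 ± 0.0567 (edgeR adjusted p = 3.07e-05). The correction thus gave 6 genes called lower and 2 higher, beside 27.4% and 34.5% of 13621 genes, or 61.9% in either direction.

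The average of both changes came from the same fit. It was called lower for 8 genes and higher for 0, with a background of 43.7% lower and 31.2% higher of 14154 genes. ACLY averaged -2.01 ± 0.0853 (edgeR adjusted p = 4.47e-08), ACACA -0.57 ± 0.103 (edgeR adjusted p = 0.000569) and ACSL3 -0.52 ± 0.0803 (edgeR adjusted p = 0.000188). For the genes whose changes differ between the siRNAs, this average mostly carries the larger change with siMESH1#1. SCD averaged 0.004 (edgeR adjusted p = 0.952), the mean of a rise and a fall, and ELOVL6 -0.12 (edgeR adjusted p = 0.166). After the GC correction ACLY averaged -1.45 ± 0.0552 and ACSL3 -0.89 ± 0.0286, both called, and FASN -0.05 ± 0.230, not called. ELOVL6, at -0.40 ± 0.0902, and SCD, at 0.08 ± 0.0319, were then called. That gave 8 genes lower and 1 higher in all, beside 27.6% and 41.4% of 13621 genes. The median change of those 13621 genes was 0.106, above that of SCD, at 0.083.

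Per kilobase of transcript, ACLY was the highest of the 10 genes in the siNT libraries of experiment 1, at 111 ± 8.56 CPM per kb (SD, n = 3). SCD at 55.4, FADS1 at 36.8, FADS2 at 22.3, ACSL3 at 18.3 and ACACA at 9.65 CPM per kb followed. ACSS2 at 8.18 and ELOVL6 at 7.75 CPM per kb overlapped, and FASN at 3.70 and SREBF1 at 2.17 CPM per kb came last. In the siNT libraries of experiment 2 SCD led at 226 ± 10.4 CPM per kb, before ACLY at 168 and FADS2 at 93.9. FADS1 at 43.5 and FASN at 39.5 CPM per kb overlapped, as did ACSL3 at 15.2 and ACSS2 at 14.5. SREBF1 stood between these pairs at 30.4 CPM per kb. ACACA at 13.1 and ELOVL6 at 1.46 CPM per kb closed the order.

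The siNT levels of several of these genes differed between the experiments. As CPM over all reads in genes, without TMM factors, SREBF1 had 8.95 to 11.2 in the siNT libraries of experiment 1 and 126 to 137 in those of experiment 2, 12.9-fold higher. FASN was 9.78-fold, FADS2 3.85-fold and SCD 3.74-fold higher in experiment 2, and ELOVL6 was 5.81-fold higher in experiment 1. ACLY, ACACA and FADS1 differed by 1.38-fold or less. FADS1 and FADS2, neighbours in the genome, therefore differed in the order of their levels. These levels, and those per kilobase above, are not corrected for GC content. It is 64.73% for SREBF1, 65.34% for FASN, 60.66% for FADS2 and 47.13% for SCD. For ELOVL6 it is 41.18%, and for ACLY, ACACA and FADS1 it lies between 48.72% and 52.15%. The part of GC content in these differences was not tested. Experiment, sequencing lanes and processing cannot be told apart here, and no test was made. In experiment 1, 6.31% to 7.59% of reads carried the label of low alignment quality, and in experiment 2, 0.

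The other genes of the pathway were counted in fixed groups, without a test of any group. Of all genes tested, 37.2% were called lower and 36.9% higher with siMESH1#1, and 26.7% and 26.6% with siMESH1#2. After the GC correction these shares were 27.0% and 41.0%, and 24.1% and 39.8%. A group count near these shares does not set the group apart. Directions are on the TMM scale, and scaled to ACTB a log2 change between -1.38 and 0 with siMESH1#1, or between -0.45 and 0 with siMESH1#2, lies above 0. On that scale the median of every group was above 0 with siMESH1#2, between 0.27 and 0.58 outside the 10 genes.

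Among 11 tested genes of SREBP1 control, 7 were called lower and 1 higher with siMESH1#1, with 2 and 2 after the GC correction. With siMESH1#2, 2 fell and 3 rose, or 2 and 6 after it. MID1IP1, which promotes the assembly of acetyl-CoA carboxylase into filaments, was called lower with both siRNAs, at -2.49 ± 0.197 and -0.39 ± 0.0523, but with the correction at -0.46 and not called with siMESH1#1, and at -0.25 and called with siMESH1#2. MBTPS2, the second protease that releases SREBP, was higher with siMESH1#1 (1.30 ± 0.133, and 0.42 corrected) and lower with siMESH1#2 (-0.78 ± 0.0730), both called.

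Of 12 tested genes of citrate and acetyl-CoA supply, 4 were called lower and 6 higher with siMESH1#1, while 8 fell and 1 rose with siMESH1#2. The corrected counts were 5 and 5 with siMESH1#1 and 7 and 3 with siMESH1#2. SLC25A1, the carrier that exports citrate from mitochondria to the site of ACLY, went from 25.6 ± 2.65 to 0.249 ± 0.332 CPM with siMESH1#1 (log2 change -6.67 ± 0.923, and -2.99 after the GC correction, both called). With siMESH1#2 it went from 169 ± 6.56 to 151 ± 2.40 CPM, a log2 change of -0.16 ± 0.0457 (edgeR adjusted p = 0.00907) that was called, but -0.01 and not called after the GC correction. PDHA1, a subunit of pyruvate dehydrogenase, was called lower with both siRNAs, at -0.70 ± 0.180 and -0.31 ± 0.0475. SLC16A1, a carrier of lactate and pyruvate, was called higher with both, at 0.94 ± 0.138 (0.43 corrected) and 0.19 ± 0.0454. ACO1, the cytosolic aconitase, rose with siMESH1#1 (1.00 ± 0.0777) and fell with siMESH1#2 (-0.73 ± 0.0538). Among 5 genes of NADPH supply, 3 fell and 2 rose with siMESH1#1, while 2 fell and 1 rose with siMESH1#2, and after the GC correction 2 fell and 2 rose, and 2 fell and 3 rose.

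The desaturase group outside the 10 genes had 5 of 7 called lower and 2 higher with siMESH1#1, while 4 fell and 0 rose with siMESH1#2. The corrected counts were 3 and 2 with siMESH1#1, and 4 and 3 with siMESH1#2. CYB5A, the cytochrome b5 that passes electrons to SCD, FADS1 and FADS2, fell with both siRNAs. With siMESH1#2 it went from 63.3 ± 2.05 to 9.68 ± 0.760 CPM, a log2 change of -2.71 ± 0.0699 (edgeR adjusted p = 2.94e-14), and from 48.0 ± 4.04 to 23.1 ± 11.9 CPM with siMESH1#1, a log2 change of -1.05 ± 0.395 (edgeR adjusted p = 0.0499). CYB5B, its outer mitochondrial membrane counterpart, was called lower at -0.23 ± 0.0836 (-0.90 corrected) and -0.52 ± 0.0532. FADS3 was called lower at -4.36 ± 0.902 and -0.24 ± 0.0569, and at -1.27 and -0.10 after the correction. DEGS1, the dihydroceramide desaturase, was higher with siMESH1#1 (0.98 ± 0.174, and 0.48 corrected) and lower with siMESH1#2 (-0.14 ± 0.0460). With siMESH1#2 CYB5A was at -2.68 after the GC correction, and its fall was larger than that of ACTB.

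Of the elongation genes outside the 10 genes, 3 of 11 fell and 5 rose with siMESH1#1, while 4 of 9 fell and 2 rose with siMESH1#2. The corrected counts were 3 and 3, and 4 and 2. ELOVL7 was called lower with both siRNAs at -0.84 ± 0.200 (-1.72 corrected) and -0.91 ± 0.0787. ELOVL1 was called lower at -2.01 ± 0.455 and -0.35 ± 0.0442, and at -0.46 and -0.22 after the correction. ELOVL2, which extends polyunsaturated chains, was called higher at 2.33 ± 0.227 (1.55 corrected) and 0.90 ± 0.174, from levels of 2.30 and 1.52 CPM in siNT. Mitochondrial fatty acid synthesis and malonyl-CoA turnover had 4 of 8 lower and 2 higher with siMESH1#1, while 0 of 7 fell and 2 rose with siMESH1#2, or 3 and 2, and 0 and 4, after the GC correction. Its CBR4, a reductase of the mitochondrial pathway, was called higher with both, at 1.16 ± 0.190 (0.24 corrected) and 0.33 ± 0.0795.

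Among acyl-CoA synthetases and thioesterases, 11 of 16 fell and 3 rose with siMESH1#1, or 5 and 5 after the GC correction, while 8 of 17 fell and 2 rose with siMESH1#2, or 7 and 3. ACSL4, which prefers arachidonate, rose from 195 ± 6.41 to 798 ± 156 CPM with siMESH1#1 (log2 change 2.03 ± 0.157, and 1.19 after the GC correction, both called) and from 140 ± 15.2 to 200 ± 3.02 CPM with siMESH1#2 (0.52 ± 0.0612, called). ACSF2 was called lower at -1.84 ± 0.354 and -0.82 ± 0.0895, and SLC27A4, a fatty acid transport protein, at -4.02 ± 1.14 and -0.50 ± 0.0750, with neither called in siMESH1#1 after the GC correction. SLC27A1 was called lower with siMESH1#1 (-3.61 ± 0.506) and higher with siMESH1#2 (0.24 ± 0.0553). After the correction SLC27A1 was at -0.18 and not called with siMESH1#1, and at 0.38 and called with siMESH1#2.

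**Figure D4:**
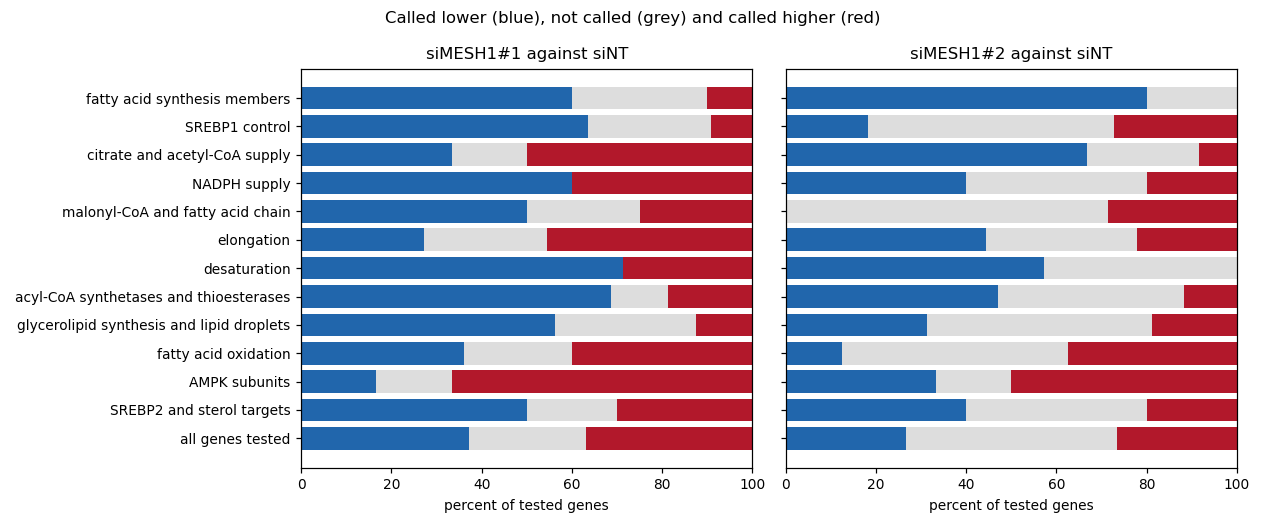
Percent of tested genes in each fixed group that were called lower (blue), not called (grey) or called higher (red) with TMM scaling, for each siRNA, with all genes tested as the lowest bar. With siMESH1#2 the 10 fatty acid synthesis genes have the longest blue bar, 8 of 10, and the fatty acid oxidation group has 9 of 24 higher and 3 lower. Of all genes tested 26.6% were higher and 26.7% lower.

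Glycerolipid synthesis and lipid droplet genes had 9 of 16 called lower and 2 higher with siMESH1#1, or 4 and 5 after the GC correction. With siMESH1#2, 5 of 16 fell and 3 rose, or 5 and 5. GPAT3, listed as AGPAT9, was called lower with both siRNAs at -0.87 ± 0.190 (-1.32 corrected) and -0.50 ± 0.113, and AGPAT4 higher at 0.38 ± 0.0847 and 0.27 ± 0.0553. AGPAT3 was called lower at -0.37 ± 0.0944 and -0.41 ± 0.0427, but higher with siMESH1#1 after the GC correction, at 1.42. GPAT4, listed as AGPAT6, was lower with siMESH1#1 (-1.24 ± 0.298, and -0.40 corrected) and higher with siMESH1#2 (0.18 ± 0.0467, and 0.28 corrected).

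Fatty acid oxidation, the opposing pathway, had 9 of 25 called lower and 10 higher with siMESH1#1, near the 37.2% and 36.9% of all genes tested. After the GC correction 3 and 10 were called, beside 27.0% and 41.0%. With siMESH1#2, 3 of 24 fell and 9 rose, beside 26.7% and 26.6%. The corrected counts were 2 and 16, beside 24.1% and 39.8%. PPARA, the nuclear receptor that activates these genes, rose from 35.7 ± 2.35 to 109 ± 8.98 CPM with siMESH1#1 (log2 change 1.61 ± 0.109) and from 83.2 ± 2.35 to 138 ± 3.57 CPM with siMESH1#2 (0.73 ± 0.0478), both called. ACADM, the medium-chain acyl-CoA dehydrogenase, was called higher at 1.54 ± 0.209 and 0.46 ± 0.0702, and DECR1, which reduces the double bonds of unsaturated chains, at 1.24 ± 0.0944 and 0.32 ± 0.0586. All 3 kept their direction and call after the GC correction, with ACADM at 0.80 and DECR1 at 0.77 with siMESH1#1.

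AMPK phosphorylates and inhibits ACACA. Of its 6 tested subunits 1 fell and 4 rose with siMESH1#1, while 2 fell and 3 rose with siMESH1#2. With GC content corrected all 6 rose with siMESH1#1, and the counts with siMESH1#2 were 2 and 3. PRKAB2 was called higher at 0.94 ± 0.158 (0.24 corrected) and 0.76 ± 0.0550, PRKAG2 at 0.99 ± 0.0875 and 0.37 ± 0.0611, and PRKAA2 at 1.18 ± 0.178 (0.27 corrected) and 0.27 ± 0.0638. PRKAA1, the other catalytic subunit, rose with siMESH1#1 (1.09 ± 0.182, and 0.17 corrected) and fell with siMESH1#2 (-0.96 ± 0.0617). SREBP2 and its sterol targets had 5 of 10 lower and 3 higher with siMESH1#1, while 4 fell and 2 rose with siMESH1#2, or 5 and 3, and 3 and 4, after the correction. DHCR7 was called lower at -3.20 ± 0.642 (-0.95 corrected) and -0.49 ± 0.0431, whereas HMGCS1 was called higher at 1.55 ± 0.147 (0.79 corrected) and 0.38 ± 0.0584. SREBF2 was lower with siMESH1#1 (-2.36 ± 0.706, not called after the GC correction) and higher with siMESH1#2 (0.40 ± 0.0449).

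The genes most like ACLY over the 12 libraries were AIFM2, RNH1, KEAP1, GJB2 and FASN, in that order, out of 8117 compared. Likeness was the root mean square difference of log2(CPM + 0.5) minus the siNT mean of the same experiment, which was 0.133 for AIFM2 and 0.186 for FASN. FASN was thus the 1 other member of the set among the 5. AIFM2, an NADPH-dependent reductase known as FSP1, changed by -3.85 with siMESH1#1 and by -0.21 with siMESH1#2 on the log2 scale, and KEAP1, the adaptor that marks NRF2 for degradation, by -3.37 and -0.40. RNH1, a ribonuclease inhibitor, changed by -4.25 and -0.12, and GJB2, a gap junction protein, by -3.60 and -0.15, neither called with siMESH1#2. The GC content of these 5 genes ran from 45.89% to 65.34%. GJB2, which had the lowest, held 1 match to the seed of siMESH1#1, as ACLY does. AIFM2, RNH1, KEAP1 and FASN held 0. The part of the match was not tested. Because the change with siMESH1#1 is so much larger, this likeness rests mainly on the 3 siMESH1#1 libraries. Neither the likeness nor these changes are corrected for GC content. The median change of the GC class with siMESH1#1 was -1.65 for AIFM2, -2.57 for KEAP1, -3.68 for RNH1 and FASN, and 0.34 for GJB2. That of ACLY was -0.76. With the correction FASN was at 0.63 and ACLY at -2.74. The part of GC content in the likeness was not tested.

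Promoters were searched because these genes have a common regulator. RefSeq (GRCh38.p14) gave windows from 250 bases before to 50 after the start site for 9 of the 10 genes. FASN had no window and was not searched. The sterol regulatory element was searched as TCACNCCAC, the NF-Y box as CCAAT, the Sp1 box as GGGCGG and the E-box as CACGTG, on both strands. NF-Y and Sp1 are the factors with which SREBP1 is known to act. These 9 genes have 14 windows, and a gene was counted if any of its windows held the motif. The same was done for all 27305 genes with a window. The NF-Y box was found in 6 of 9 genes (39.7% of all genes) and the Sp1 box in 9 of 9 (48.3%). The sterol regulatory element in this spelling was found in 0 of 9 (1.39%) and the E-box in 0 of 9 (8.77%). Of all 35116 single windows, 34.6%, 45.0%, 1.13% and 7.26% held these motifs. A count of 0 says only that these letters are not in these windows. An NF-Y box on the strand of the gene is shown in capitals for 4 genes that fell with siMESH1#2 on the TMM scale, of which ACLY, SCD and FADS2 lie above 0 on the ACTB scale.
ACLY: acgcgtgtggCCAATcgcggggccg
SCD: ttcccttcggCCAATgacgagccgg
FADS2: cgcaggacacCCAATcaccgggcaa
ACSL3: cgctcgcgggCCAATgggtggcagc
The ACLY box begins 23 bases before one annotated start site, that of SCD 186 and that of ACSL3 75 bases before, and that of FADS2 5 bases after.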

How the data were processed

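RNA-seq libraries of RCC4 cells (TruSeq Stranded mRNA, single-end reads of 50 bases, HiSeq 4000) formed groups by the transfected siRNA that each label gives. The values the authors deposited are raw counts per gene. The submitters' processing notes name FastQC, HISAT2, HTSeq and DESeq2 and the build hg19, with no versions. The strand setting, annotation and counting mode are not given in the sources used here. Deposited DESeq2 tables hold the authors' own comparisons and were not used. Summary rows without a gene name entered neither library sizes nor tests. Of all reads in experiment 1, 14.7% to 15.5% in siNT and 18.4% to 20.8% in siMESH1#1 overlapped no gene. Those not aligned were 5.31% to 16.2% in siNT and 2.51% to 3.21% in siMESH1#1. Neither share overlapped between these groups. In experiment 2, 10.0% to 12.2% overlapped no gene and 3.45% to 3.82% were not aligned.

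Counts were tested in R 4.3.3 with edgeR 4.0.16 (filterByExpr, TMM, glmQLFit and glmQLFTest, Benjamini-Hochberg over all genes tested, threshold 0.05). Each siRNA was fitted with the 6 libraries of its experiment. The average and the difference of both changes used all 12 libraries and 4 groups. Their p-values rest on 1 spread per gene shared by both experiments, with a coefficient of 0.196 over all genes. CPM are TMM-scaled within an experiment, except for the cell markers and where reads in genes alone are named. The marker values are scaled to all reads in genes only. Errors are SD of 3 libraries, and SE comes from edgeR. The labels call the replicates biological but give no separate cultures, so p-values measure the spread between these libraries. An exact permutation test of 3 against 3 cannot go below 0.1 and was not used. Biological variation (edgeR's coefficient) came to 0.299 for experiment 1 and 0.049 for experiment 2, so the spread between replicates was wider in experiment 1.

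For the GC correction, log2 CPM with a prior count of 1 was smoothed against transcript GC content (lowess, span 0.3) in every library. The smooth entered the model as an offset in place of the TMM factors, so the median over all genes can move with it. Alternatives were DESeq2 1.42.0, library size or DESeq2 size factors, no filter or at least 10 counts in every library, a GC and length correction, limma 3.58.1 with library weights, a replicate block, a lane covariate, 1 model of all libraries, ACTB scaling, a threshold of 0.01, and leaving out each library. The edgeR fit was tested on simulated counts without a GC trend, in which 200 genes had a log2 change of 1 in either direction. Every simulated gene had the same spread. In the data it differs between genes, with SE from 0.0779 for SCD to 1.15 for FADS2 with siMESH1#1. The recovery is thus not that of any single gene here. Simulated results with a GC trend, or for the GC correction, are not reported here. At the spread of experiment 1 edgeR recovered 4% of them, and at that of experiment 2, 99.5%. At the spread shared by both experiments it recovered 99% for the average and 23.5% for the difference. A gene not called with siMESH1#1 or for the difference may therefore still have changed.

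The genes, groups and tests were chosen with earlier results of these data known. In each group the text names up to 3 genes called in the same direction with both siRNAs, by the smaller absolute change, and the gene with the largest difference among those called in opposite directions. Genes like ACLY were sought among those with a mean of at least 10 CPM in each experiment. Lengths, GC content, 3'UTRs and positions are from GENCODE 29 on GRCh38, not the build of the counts, matched by symbol (21257 of 23710 by name, 1060 by an older symbol, 1393 not at all). Promoter windows are from RefSeq. Python 3.11.15, numpy 2.4.6 and pandas 2.3.3 were used. The single values of some genes of the pathway lists are not reported here, although the counts per list include them.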

Additional observations from a re-analysis of the deposited data

Results flagged for a closer look

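For 7 of the 10 genes the change with siMESH1#1 differed from that with siMESH1#2 by edgeR's quasi-likelihood test of the difference. Over all 14154 genes tested 69.7% did, so the count of 7 does not set these genes apart. Each siRNA was tested in its own experiment, so siRNA and experiment cannot be told apart. The difference in log2 change, siMESH1#1 minus siMESH1#2, was -4.24 for FADS2, -4.03 for SREBF1, -3.42 for ACLY, -3.38 for FASN, -2.02 for ACSS2 and -0.99 for FADS1. It was 0.82 for SCD, the gene called in opposite directions. After the GC correction the difference stayed past the threshold for ACLY, ACSS2, FADS1, FADS2 and SCD, and not for SREBF1 (-0.54, edgeR adjusted p = 0.0710) and FASN (0.50, edgeR adjusted p = 0.373). It was then also called for ACACA (0.54, edgeR adjusted p = 0.00291), ELOVL6 (-0.86, edgeR adjusted p = 0.00179) and ACSL3 (-0.49, edgeR adjusted p = 3.07e-05, from 0.22 before it), for 8 genes in all, where 61.9% of 13621 genes were called. Scaled to ACTB, that of FADS1 was 0.11. With 3 libraries a group, single libraries were not tested for standing apart.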

How the results depend on the processing

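With siMESH1#1 the correction for GC content changed 4 calls. It turned FASN to 0.63 (0.48 with length as well) and ended the call of SREBF1, at -0.60 (-0.69 with length), and it called ELOVL6 at -0.79 (-0.91) and ACSL3 at -1.08 (-1.21) lower. With siMESH1#2 it added 1 gene called higher, ACSS2, with and without length. It also gave 1 called higher for the average, SCD at 0.083, below the median of all genes tested, 0.106. With length SCD was 0.014 there and not called. For the difference between the siRNAs it gave 2 called higher, SCD and ACACA, with and without length. The FASN difference became 0.50 (0.43 with length) and that of ACSL3 -0.49 (-0.57 with length). DESeq2 and its size factors in edgeR also gave 2 called higher for the difference, and limma with library weights gave 3. In either direction these called 10063, 9950 and 12103 of 14154 genes. DESeq2 gave no adjusted p for FADS2 in the average and the difference. Fitted in 1 model of all 12 libraries, siMESH1#2 kept 4 genes called lower (ACACA, FASN, SCD and ACSL3) and 2582 genes in all, against 8 and 7235 in the fit of experiment 2 alone. That model takes its spread from both experiments. With siMESH1#1 it had 9 called lower against 6, with ACACA, ELOVL6 and ACSL3 added, as with limma's library weights. In either direction, the model of all libraries called 11418 of 14154 genes with siMESH1#1. Limma called 12284 of 13395, against 9926 of 13395 in the fit of experiment 1 alone.

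Scaled to ACTB, values of called genes turned above 0 for FADS1 with siMESH1#1 (0.32), for SREBF1 (0.19), ACLY (0.16), FASN (0.009), SCD (0.048), FADS1 (0.21) and FADS2 (0.069) with siMESH1#2, for ACACA (0.42), FADS1 (0.26) and ACSL3 (0.48) in the average, and for FADS1 in the difference (0.11). ACTB itself had a log2 change of -1.38 with siMESH1#1 and of -0.45 with siMESH1#2. Values near 0 that had not been called changed sign for ACSS2 with siMESH1#2 at 10 counts in every library (-0.000343), in 1 model (-0.000527) and with library size (-0.004), for ELOVL6 with siMESH1#2 under the GC and length correction (-0.015), and for SCD in the average with library size (-0.049). Library size in place of TMM shifted the median of all genes with siMESH1#1 by -0.26 and called ELOVL6 and ACSL3 lower.

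Leaving out each library in turn gave 5 to 7 genes called lower with siMESH1#1, 8 in each case with siMESH1#2, and 1 to 2 called higher for the difference. Over all genes and in either direction, 8200 to 11097, 6264 to 8372 and 9103 to 11113 were called. Over these fits ACLY ran from -3.72 to -3.43 with siMESH1#1, and its change with siMESH1#2 from -0.30 to -0.28. ACSS2 with siMESH1#2 ran from -0.008 to 0.022, ELOVL6 with siMESH1#2 from -0.039 to 0.063, and SCD in the average from -0.012 to 0.042. The replicate numbers did not pair the libraries. Deviations from the group means of same-numbered libraries correlated at -0.08, 0.30 and 0.18 in experiment 1 and at -0.09, 0.04 and -0.09 in experiment 2. A replicate block left 6 genes called lower and 1 higher with siMESH1#1 and 8 and 0 with siMESH1#2, with 9273 and 6972 genes called in all. A lane covariate also left 6 and 1 with siMESH1#1, with 8751 genes called in all. At a threshold of 0.01, 5 and 1 were called with siMESH1#1 and 8 and 0 with siMESH1#2. Over all genes 7351 then passed with siMESH1#1. With at least 10 counts in every library SREBF1 could not be fitted for siMESH1#1. Depth limits SREBF1 and FADS2 in siMESH1#1, whose lowest libraries held 3 and 11 reads.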
